A study of Mus musculus with 6 samples.

Results

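Cardiac troponin, tropomyosin and actin form the thin filament of the heart muscle sarcomere, and 5 genes encode its core: Tnnt2, Tnni3, Tnnc1, Tpm1 and Actc1. They were taken by gene symbol from a deposited table of 12560 genes, and each was detected in all 6 libraries. The genes were selected on their high deposited FPKM in these same libraries, so their level is a description and carries no test. RNA sequencing libraries came from samples labelled as mouse chondrocytes: 3 Eldr cKO libraries, from mice with a conditional knockout of the long noncoding RNA Eldr, and 3 control libraries. Sources used here do not give the Cre driver, the alleles of the controls, age, sex or treatment. Values of Eldr were not analysed here, which leaves the knockout unchecked in these libraries. Whether the libraries of a genotype stem from different mice is not stated either, and every p below therefore measures a spread that could be technical.

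In a thin filament, actin monomers are stacked into a double helical strand, tropomyosin runs along its groove, and a troponin complex sits on each tropomyosin. Troponin C binds calcium, troponin I holds the filament in its blocked state, and troponin T ties the complex to tropomyosin. Heart muscle uses Tnnt2 and Tnni3, which are largely its own, and Tnnc1, which it shares with slow skeletal muscle. Tpm1 has many splice forms and is also used outside striated muscle, while Actc1 is the main sarcomeric actin of the adult heart. The complex holds its subunits in equal numbers and actin in excess, a ratio of proteins that need not hold for transcripts.

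By the depth estimated here the libraries were shallow, and counting error is large for all but the deepest. Depth estimated from the FPKM steps of weakly detected genes was 52267 to 191543 fragments in Eldr cKO and 79234 to 464359 in control libraries (FPKM counts fragments per transcript length and per sequenced fragments of the library). Some values lie far below 1 such fragment. Sox5 was listed at 0.169 FPKM in Eldr cKO 2, where 1 fragment on 1 kb is 19.1 FPKM. Why such values occur was not tested, and the fragment numbers and intervals below are approximate. Mitochondrially encoded transcripts made up 33.8% to 43.6% of all FPKM in Eldr cKO and 41.1% to 70.0% in control libraries. A group of 12 repeat-rich predicted genes led by Gm10800 held 3.84%, 48.8% and 46.2% in Eldr cKO 1, 2 and 3 and 3.07%, 12.9% and 13.4% in control 1, 2 and 3. Of 20 cartilage markers 8 had a row and 1, Sox5, was above 0 in all 6 libraries, and their summed FPKM was 6.64 to 17.2 in Eldr cKO and 2.10 to 18.8 in control libraries. Comp, a cartilage matrix protein, was listed at 0 in 4 libraries, and Sox9, the main chondrocyte transcription factor, in 2. Type II collagen (Col2a1) and aggrecan (Acan) were among the markers without a row under these symbols, so no level can be given for them. All 22 heart markers, which include 3 of the 5 genes, were listed and 14 of them were detected in every library, with a summed FPKM of 2270 to 9829 in Eldr cKO and 1457 to 11462 in control libraries. The labelled cell type therefore went against the levels of its markers. In such bulk RNA, fewer cells of a type and less RNA per cell cannot be told apart.

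Tnnt2, which encodes cardiac troponin T (ENSMUSG00000026414.13; GRCm38 chromosome 1, 135836354 to 135852260, plus strand), stood at 522, 148 and 161 FPKM in Eldr cKO 1, 2 and 3 and at 827, 137 and 86.7 FPKM in control 1, 2 and 3. Both libraries numbered 1 were high, the other 4 were low, and the groups overlapped. It had the lowest level of the 5 genes in 4 of the 6 libraries. These values correspond to about 120, 9 and 11 fragments in Eldr cKO and 461, 13 and 14 in control libraries, on a principal transcript of 1200 bases with 16 exons. For 9 fragments, counting alone gives an exact 95% Poisson interval of 4.12 to 17.1, and all intervals here cover counting error only.

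Tnni3, cardiac troponin I (ENSMUSG00000035458.15; chromosome 7, 4518305 to 4524229, minus strand), stood at 742, 182 and 280 FPKM in Eldr cKO and at 804, 140 and 103 FPKM in control libraries. The fragments behind them numbered about 130, 9 and 14 in Eldr cKO and 341, 10 and 12 in control libraries. Again the groups overlapped, with both libraries numbered 1 on top.

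Tnnc1, the troponin C of heart and slow muscle (ENSMUSG00000091898.8; chromosome 14, 31208312 to 31211729, plus strand), was the most abundant troponin transcript in every library. It stood at 1105, 244 and 301 FPKM in Eldr cKO and at 1241, 327 and 178 FPKM in control libraries. Its principal transcript of 721 bases is the shortest of the 5, so the FPKM of Tnnc1 stood on about 9 to 153 fragments in Eldr cKO and 17 to 415 in control libraries. In control 1 it was the highest of all 5 genes.

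Tpm1, the alpha tropomyosin (ENSMUSG00000032366.15; chromosome 9, 67022590 to 67049406, minus strand), stood at 472, 227 and 235 FPKM in Eldr cKO and at 525, 188 and 138 FPKM in control libraries. Its highest library was 3.81 times its lowest, the narrowest span of the 5 genes, against 9.53 times for Tnnt2. The gene has 16 annotated protein-coding transcripts of 887 to 2890 bases, which the gene-level FPKM does not separate. Its fragment numbers, about 23 to 172 in Eldr cKO and 28 to 463 in control libraries, assume the principal form of 1898 bases.

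Actc1, cardiac alpha actin (ENSMUSG00000068614.7; chromosome 2, 114047282 to 114053548, minus strand), stood at 1451, 497 and 334 FPKM in Eldr cKO and at 940, 398 and 272 FPKM in control libraries. It had the highest level of the 5 in every library but control 1. With about 28 to 409 fragments in Eldr cKO and 46 to 643 in control libraries it was also the best covered. In Eldr cKO 1 it ranked 17th of all genes in the table.

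**Figure D1:**
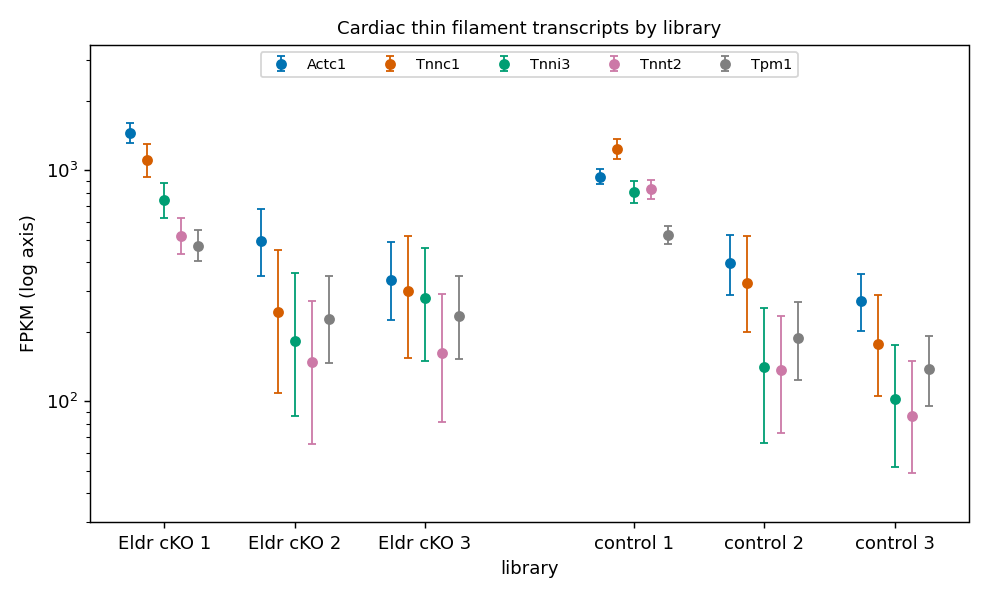
FPKM (log axis) of the 5 thin filament genes in the 3 Eldr cKO and 3 control libraries; points are deposited values and bars the exact 95% Poisson interval of the estimated fragments, covering counting error only. Both libraries numbered 1 lie above the other 4 for each gene, and control 3 is the lowest.

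For each of the 5 genes the 2 libraries numbered 1 were the highest and control 3 was the lowest. Among 1592 genes above 0 in all 6 libraries, 281 (17.7%) had both libraries numbered 1 above the other 4, 227 (14.3%) had control 3 lowest, and 89 (5.59%) had both. The libraries numbered 1 were also the deepest of their group and had the smallest repeat-rich share, 3.84% in Eldr cKO 1 and 3.07% in control 1. The part of depth and of library content in this order was not tested. Summed over the 5 genes, FPKM was 4293, 1299 and 1312 in Eldr cKO and 4337, 1190 and 778 in control libraries. Against the summed FPKM of genes outside the mitochondrial and repeat-rich groups, this was 2.90%, 1.87% and 1.59% in Eldr cKO and 3.46%, 1.87% and 0.622% in control libraries. With that scaling control 3 remained the lowest library and control 1 the highest.

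Actc1 and Acta1, its skeletal muscle counterpart, are close enough in sequence that reads could in principle be exchanged between them. Over 1131 coding bases they are 86.3% identical, and the longest identical run is 29 bases. No window of 50 bases in the principal transcript of any of the 5 genes was found in an annotated transcript of another gene (0 of 1424 windows for Actc1).

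The proportions of the 5 transcripts to each other, taken per length as shares of their summed FPKM, do not depend on how a library was scaled. Actc1 made up 33.8%, 38.3% and 25.5% in Eldr cKO 1, 2 and 3 and 21.7%, 33.5% and 35.0% in control 1, 2 and 3. Tnnc1 followed with 25.7%, 18.8% and 23.0% in Eldr cKO and 28.6%, 27.5% and 22.8% in control libraries. Both genes held a larger part than each of the other 3 in every library.

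Tnni3 held 17.3%, 14.0% and 21.4% in Eldr cKO and 18.5%, 11.8% and 13.2% in control libraries. Tpm1 held 11.00%, 17.5% and 17.9% in Eldr cKO and 12.1%, 15.8% and 17.8% in control libraries. Within each genotype, Tpm1 had its smallest part in the library numbered 1. Tnnt2 held 12.2%, 11.4% and 12.3% in Eldr cKO and 19.1%, 11.5% and 11.2% in control libraries, control 1 being apart from the other 5.

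By group, Actc1 averaged 32.5% ± 6.5 in Eldr cKO and 30.1% ± 7.3 in control libraries, and Tnnc1 22.5% ± 3.5 and 26.3% ± 3.1 (SD, n = 3 each). For Tnni3 the means were 17.6% ± 3.7 in Eldr cKO and 14.5% ± 3.6 in control libraries, for Tpm1 15.5% ± 3.9 and 15.2% ± 2.9, and for Tnnt2 11.95% ± 0.50 and 13.9% ± 4.5 (SD, n = 3 each). The groups overlapped for each of the 5 shares.

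**Figure D2:**
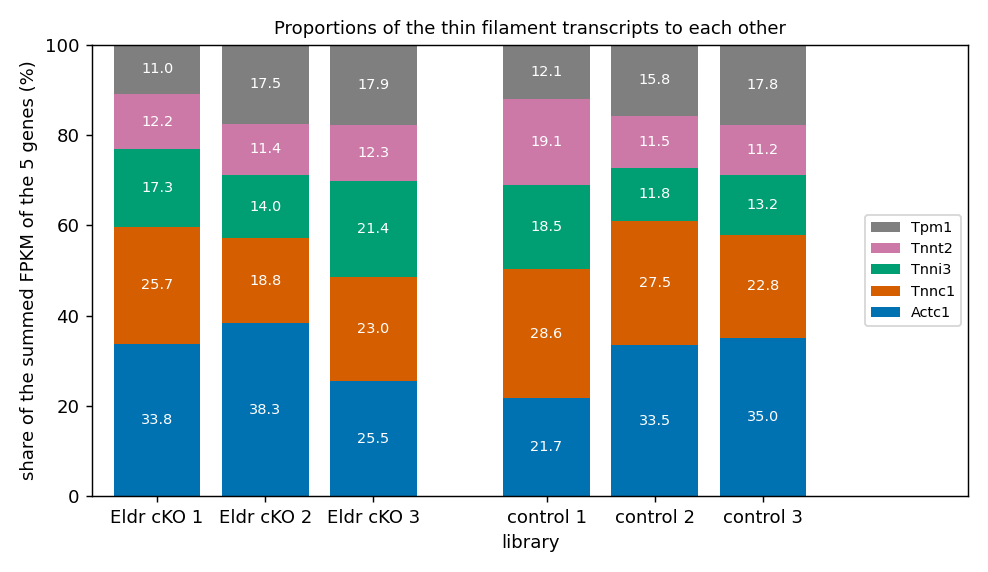
Share of each gene in the summed FPKM of the 5 thin filament genes (percent, 1 bar per library; Eldr cKO left, control right). Actc1 ranges from 21.7% to 38.3% and is the largest part in each library but control 1, where Tnnc1 holds 28.6%.

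Ratios within a library gave the order of the levels. Actc1 exceeded Tnni3, Tnnt2 and Tpm1 in 6 of 6 libraries, and Tnnc1 exceeded the same 3 genes in 6 of 6. Between these leading genes, Actc1 was above Tnnc1 in 5 of 6 libraries, and their ratio ran from 0.758 in control 1 to 2.03 in Eldr cKO 2. Neighbours in the lower part of the order did not separate: Tnni3 was above Tpm1 in 3 of 6 libraries and Tnnt2 above Tpm1 in 2 of 6. Tnni3 was above Tnnt2 in 5 of 6.

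Counting error left many of these ratios indistinguishable from 1. With exact 95% binomial intervals on the estimated fragments, 9, 3 and 1 of the 10 pairs of genes differed from 1 in Eldr cKO 1, 2 and 3 and 9, 5 and 3 in control 1, 2 and 3. The ratio of Actc1 to Tnnt2 had an interval above 1 in 6 of 6 libraries, and that of Actc1 to Tpm1 in 5 of 6. Actc1 over Tnnt2 was 2.78, 3.36 and 2.07 in Eldr cKO and 1.14, 2.91 and 3.14 in control libraries. Among the 2 deep libraries, where counting error is smallest, the interval was 2.26 to 3.43 in Eldr cKO 1 and 1.01 to 1.28 in control 1. These intervals do not overlap, but the ratios in control 2 and 3 were above that in Eldr cKO 1, so the genotypes overlapped. Actc1 over Tpm1 was 3.07, 2.19 and 1.42 in Eldr cKO and 1.79, 2.12 and 1.97 in control libraries.

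The steadiest ratio was that of Tnnc1 to Tnnt2, 2.12, 1.65 and 1.87 in Eldr cKO and 1.50, 2.39 and 2.05 in control libraries, with an SD of 0.25 on the log2 scale over 6 libraries. Its interval in Eldr cKO 2, 0.585 to 4.73 on 9 fragments a gene, covered the ratios of all 6 libraries. The ratio of Actc1 to Tnni3 was the least steady, with an SD of 0.59, and ran from 1.17 in control 1 to 2.84 in control 2. The intervals of these 2 libraries, 1.02 to 1.34 and 1.42 to 6.33, did not overlap. Whether the pairs differ in steadiness beyond counting error was not tested.

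**Figure D3:**
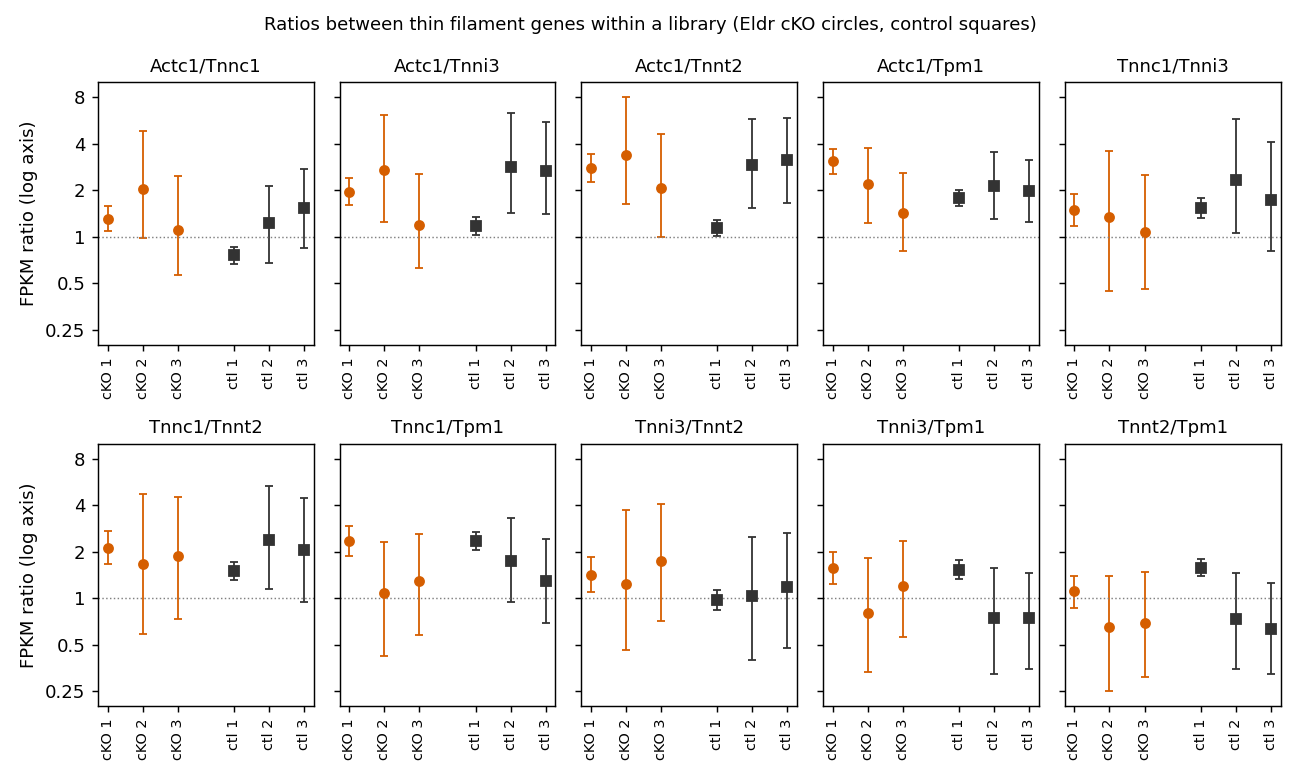
FPKM ratios (log axis) of the 10 pairs of thin filament genes in each library, Eldr cKO as circles (cKO) and control as squares (ctl), with exact 95% binomial intervals of the estimated fragments; the dotted line marks equal levels. Intervals are narrow in the libraries numbered 1 and wide in the other 4; the groups' points do not overlap for Tnnc1/Tnni3 and Tnni3/Tnnt2.

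The ratios were then compared between genotypes, 10 pairs in all, with a two-sided exact permutation test on log2 ratios whose smallest p with 3 against 3 is 0.1. In 2 pairs, both involving Tnni3, the groups did not overlap, against 6.89% of all pairs among the 1592 genes above 0 in every library. Tnni3 over Tnnt2 was 1.42, 1.23 and 1.74 in Eldr cKO and 0.972, 1.03 and 1.19 in control libraries, a log2 difference of 0.45 (exact permutation p = 0.1, adjusted p = 0.5 over the 10 pairs). Tnnc1 over Tnni3 was 1.49, 1.34 and 1.07 in Eldr cKO and 1.54, 2.33 and 1.73 in control libraries, a log2 difference of -0.51 (exact permutation p = 0.1, adjusted p = 0.5). Both pairs share the Tnni3 values and are not separate evidence. In Eldr cKO 2 and 3 these ratios rest on 9 to 14 fragments a gene, and the interval of Tnni3 over Tnnt2 reached from 0.463 to 3.74 in Eldr cKO 2. For the other 8 pairs the log2 difference lay between -0.24 and 0.35, with exact permutation p from 0.5 to 0.9.

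None of the 5 genes differed detectably by genotype. Limma with Benjamini-Hochberg adjustment called 0 of 9007 tested genes (0.00%), and 135 (1.50%) had an unadjusted p under 0.05, none of them a member. On the log2(FPKM + 1) scale the log2 fold change was 0.57 for Tnni3 (95% interval -1.30 to 2.44), 0.41 for Actc1 (-1.28 to 2.11) and 0.29 for Tpm1 (-1.59 to 2.18). It was 0.11 for Tnnt2 (-1.81 to 2.04) and 0.06 for Tnnc1 (-1.70 to 1.82). All 5 were above 0, as were 45.5% of all tested genes, and their median was 0.29 against -0.13 over all tested genes. Adjusted p was 1.00 for each in limma, and these standard errors, from 0.87 to 0.98, came from the variance trend over genes. Intervals this wide leave room for changes of more than 2-fold in either direction. By the authors' deposited table, p was under 0.05 for 249 of 12560 genes (1.98%), none of them a member. The authors' deposited table gave p from 0.633 for Tnni3 to 0.959 for Tnnc1 and q from 0.918 to 0.993.

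Single libraries decided the sign. Without Eldr cKO 1, the log2 fold change of Tnnc1 was -0.62, that of Tnnt2 -0.47 and that of Actc1 -0.20, while without control 1 they were 0.84, 1.08 and 0.92. The median over all tested genes moved too, from -0.13 with all libraries to -0.76 without Eldr cKO 1 and 0.10 without control 1. Tnnc1, Tnnt2 and Actc1 lay above that median in both fits, so the change of sign was not particular to them. The summed FPKM of the 5 genes averaged 2301 ± 1725 in Eldr cKO and 2102 ± 1947 in control libraries (SD, n = 3 each). The difference of the group means of log2 summed FPKM was 0.29 (two-sided exact permutation p = 0.6). Leaving out Eldr cKO 1 gave -0.28, leaving out control 3 gave -0.23, and leaving out control 1 gave 1.01.

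The other troponin genes were nearly undetected. Of 5 paralogs from skeletal muscle, Tnnt1 (slow troponin T) and Tnnt3 (fast troponin T) had a row, and Tnni1, Tnni2 and Tnnc2 had none under these symbols. Tnnt1 was listed at 0 in each Eldr cKO library and at 5.41, 0 and 0 FPKM in control 1, 2 and 3, and Tnnt3 likewise at 0 in Eldr cKO and at 4.28, 0 and 0 FPKM in control libraries. Tnnt2 was 85.4 times their sum in control 1. At the depth estimated for Eldr cKO 2, 1 fragment on a transcript of 1200 bases was worth 15.9 FPKM. Levels such as those in control 1 could therefore have gone undetected there.

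Tropomyosin was mixed. Tpm1 held 75.6%, 87.6% and 80.7% of the FPKM of the 4 tropomyosin genes in Eldr cKO and 90.6%, 78.1% and 49.3% in control libraries. No counting interval was worked out for these shares. Tpm4, a nonmuscle form, stood at 73.0, 17.3 and 34.0 FPKM in Eldr cKO and at 29.9, 5.71 and 96.2 FPKM in control libraries, control 3 being the highest. Tpm3, used in slow muscle and outside muscle, stood at 40.5, 15.0 and 22.3 FPKM in Eldr cKO and at 10.5, 42.9 and 45.5 FPKM in control libraries. Tpm2, the beta form of skeletal and smooth muscle, was at 39.1 FPKM in Eldr cKO 1 and listed at 0 in Eldr cKO 2 and 3, against 14.3, 3.86 and 0 FPKM in control libraries.

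Among sarcomeric actins Actc1 was the larger part in every library. Acta1 stood at 298, 12.5 and 69.7 FPKM in Eldr cKO and at 250, 113 and 29.7 FPKM in control libraries. Actc1 held 83.0%, 97.5% and 82.7% of both in Eldr cKO and 79.0%, 77.9% and 90.2% in control libraries. The cytoplasmic actin Actb stood at 580.5, 97.0 and 228 FPKM in Eldr cKO and at 103, 74.4 and 707 FPKM in control libraries. In control 3, where Actc1 was lowest, Actb was above it, and Actc1 held 25.5% of the 5 measured actins there, against 45.5% to 70.3% in Eldr cKO and 68.2% and 60.5% in control 1 and 2. Acta2, the smooth muscle actin, stood at 138, 48.5 and 10.1 FPKM in Eldr cKO and at 54.1, 21.2 and 15.1 FPKM in control libraries. Actg1, the gamma cytoplasmic actin, stood at 73.3, 51.7 and 92.1 FPKM in Eldr cKO and at 30.9, 51.3 and 44.8 FPKM in control libraries. Its groups did not overlap, as for 355 of 9007 tested genes (3.94%), with a log2 fold change of 0.75 and a limma adjusted p of 1.00. None of the 3 tropomyosin and 4 actin paralogs tested passed the test, 1 and 3 of them being higher in Eldr cKO.

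**Figure D4:**
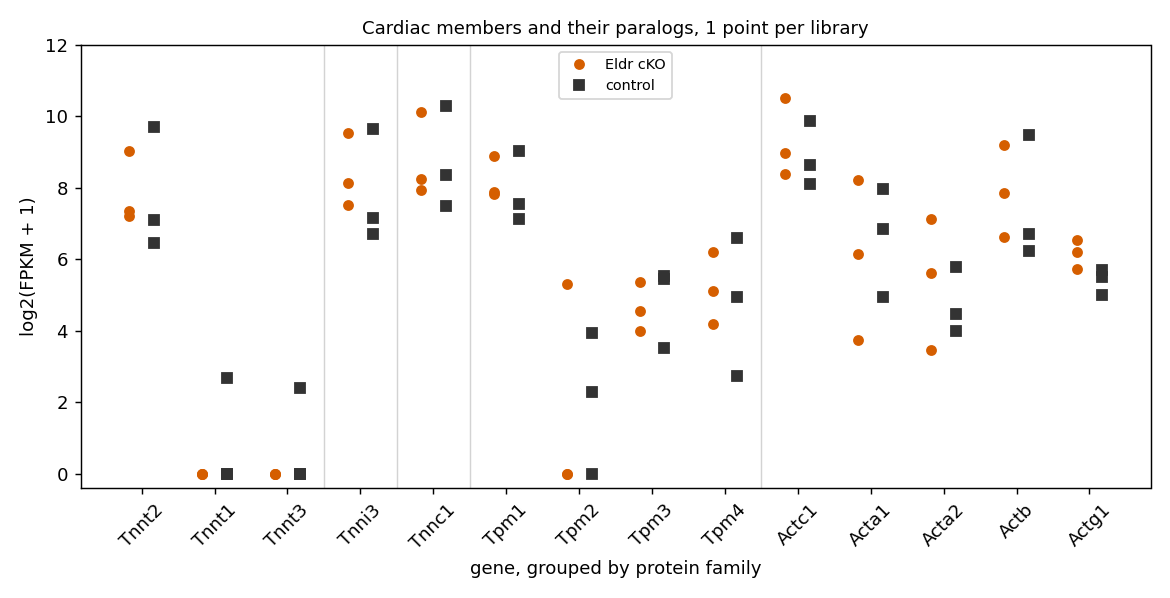
Levels, as log2(FPKM + 1), of the 5 thin filament genes and their paralogs with a row; each point is 1 library, Eldr cKO as circles and control as squares. Tnnt1 and Tnnt3 lie at 0 in all libraries but control 1, while Tnnt2 lies above 6 throughout.

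Genes that cap, lengthen or bind the thin filament were sparser than its core. Of 18 such genes 16 were listed, of which 5 had a value above 0 throughout. Between genotypes, 5 were higher and 11 lower in Eldr cKO, 0 passed, and the median log2 fold change was -0.30 against -0.13 over all tested genes (limma). Lmod2, a leiomodin that nucleates and lengthens actin filaments, stood at 202, 19.3 and 18.0 FPKM in Eldr cKO and at 250, 56.0 and 6.54 FPKM in control libraries. Mybpc3, the cardiac myosin binding protein that reaches across to actin, stood at 196, 37.6 and 11.0 FPKM in Eldr cKO and at 288, 80.6 and 20.7 FPKM in control libraries. Both were again highest in the libraries numbered 1, and 5 of 5 thin filament genes were above both in each library. Tmod1, which caps the pointed end of the filament, stood at 57.6, 4.84 and 4.10 FPKM in Eldr cKO and at 42.6, 0 and 0 FPKM in control libraries. Cfl2, the muscle cofilin, had a log2 fold change of 1.56 (SE 1.31), Capzb, a barbed-end capping subunit, 0.77 (SE 1.29), Xirp1 0.92 (SE 1.34) and Cap2, an actin monomer binding protein, 0.71 (SE 1.37). Nrap, which takes part in myofibril assembly, was at -0.56 (SE 1.31), the formin Fhod3 at -0.87 (SE 1.32) and Capza2, another capping subunit, at -1.09 (SE 1.35).

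Levels of the thick filament partners against the thin filament varied between libraries. Whether they were less steady than the members beyond counting error was not tested. Relative to the geometric mean of the 5 genes, Myh6, the alpha myosin heavy chain, was 2.25, 1.24 and 1.19 times as high in Eldr cKO and 3.49, 2.44 and 1.36 times in control libraries. Myl2, the ventricular regulatory light chain, was 1.51, 1.38 and 1.04 times as high in Eldr cKO and 1.93, 2.17 and 0.784 times in control libraries. Myl3, the ventricular essential light chain, was 0.564, 0.887 and 0.629 times as high in Eldr cKO and 0.373, 0.344 and 0.630 times in control libraries. Myl7, the atrial light chain, was at 682, 0 and 94.6 FPKM in Eldr cKO and at 431, 0 and 0 FPKM in control libraries, so that the thin filament genes were present in 3 libraries in which it was listed at 0.

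Which genes kept the steadiest ratio to the thin filament was measured by the SD over 6 libraries of log2(gene / geometric mean of the 5 genes), among the 1592 genes above 0 in every library. For a member, the other 4 served as the comparison. Tnnc1 had an SD of 0.27 (rank 2 of 1592), Tnnt2 0.33 (rank 8), Tnni3 0.36 (rank 10), Tpm1 0.39 (rank 12) and Actc1 0.44 (rank 18), while the median of all 1592 was 1.55. The members were selected on a high level, and 600 of the 1592 genes had a mean of at least 20 FPKM. Counting error widens the SD of low genes, and no comparison matched by level was made. The ranks therefore cannot separate a steady ratio from a high level. Of the first 10 other genes, 9 were Ech1 (0.26), Uqcrfs1 (0.28), Pcdh7 (0.29), Ckm (0.30), Fabp3 (0.31), Lars2 (0.34), Mb (0.38), Postn (0.40) and Cacna1c (0.40). Ech1 acts in fatty acid oxidation. Uqcrfs1 is a subunit of respiratory complex III and Fabp3 the fatty acid binding protein of heart. Ckm is the muscle creatine kinase and Mb myoglobin. Ech1, with the steadiest ratio, stood at 101, 33.6 and 33.4 FPKM in Eldr cKO and at 75.3, 24.8 and 21.1 FPKM in control libraries. Fabp3 stood at 935, 387 and 494 FPKM in Eldr cKO and at 1510, 304 and 168 FPKM in control libraries. Pcdh7, Lars2, Postn and Cacna1c stayed below 17 FPKM in each library. Outside the libraries numbered 1 they were below the level of 1 fragment on 1 kb. That level ran from 7.67 FPKM in control 3 to 19.1 FPKM in Eldr cKO 2. Their SDs could therefore rest on few fragments a library. Requiring a mean of at least 20 FPKM dropped Pcdh7, Lars2, Postn and Cacna1c and kept 6 of the 10. The filter leaves each SD as it was, so it is no separate check of the ranks.

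Paralogs were less steady by the same measure. Acta2 had an SD of 0.89 (rank 180), Actg1 1.26 (rank 462) and Acta1 1.15 (rank 365). Tpm3 stood at 1.64 (rank 907), Tpm4 at 1.66 (rank 939) and Actb at 1.78 (rank 1072). In Eldr cKO 2, Acta1, Tpm3 and Tpm4 were at 12.5, 15.0 and 17.3 FPKM, below the 19.1 FPKM of 1 fragment on 1 kb. Actb was at 74.4 FPKM or above in each library. The part of counting error in the SDs of the paralogs was not tested. Myl3, Myl2 and Myh6 lay between the members and the paralogs at 0.51, 0.55 and 0.64.

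**Figure D5:**
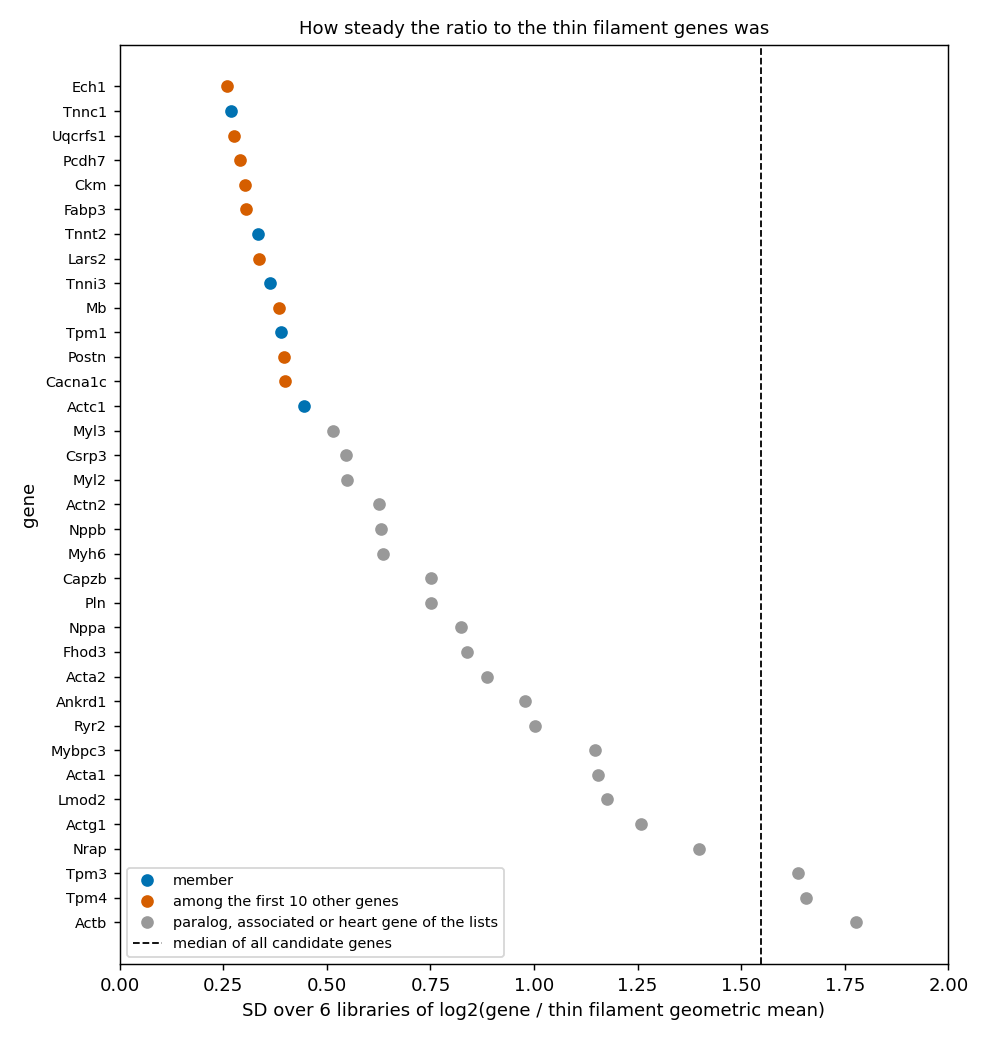
SD over the 6 libraries of the log2 ratio of a gene to the geometric mean of the thin filament genes; small values mark a steady ratio, and the dashed line is the median of the 1592 genes above 0 in every library, 1.55. The 5 members lie between 0.27 and 0.44, and Acta1, Tpm3, Tpm4 and Actb at 1.15 and above. Genes were not matched by level.

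The 250 bases before the RefSeq transcription starts of the 5 genes on GRCm38.p6 were searched on both strands for short motifs bound by factors of muscle genes. Whether promoter sequence bears on the library order that the 5 genes share was not tested. All 5 genes were found in the RefSeq table, with 6 starts in all, Tnnt2 having 2. CATTCC, the core of the MCAT element bound by TEAD factors, was found before Tnnt2, Tnnc1 and Tpm1, and in 12.6% of all 32851 starts. The CArG box, bound by serum response factor, was found before Actc1 and in 1.47% of all starts. The letters AGATAA, known from cardiac zinc finger factors, were found before Tnnt2 and in 9.99% of all. The core promoter motif TATAAA (12.4% of all) and the MEF2 site (2.92%) were found before none of the 5. No motif was found in the window of Tnni3, which says nothing of the factors themselves. The matched stretches of 30 bases, on the strand of the gene and with the match in capitals, were at chr1:135836295-135836324 for Tnnt2, chr14:31208242-31208271 for Tnnc1, chr9:67049252-67049281 for Tpm1 and chr2:114052903-114052932 for Actc1. Tnnc1 and Tpm1 carry CATTCC on the opposite strand, so it reads GGAATG here:

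Tnnt2: tctcctgctgcaCATTCCtccctccgcggg

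Tnnc1: tgggctgggctgGGAATGtagcaggaggtg

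Tpm1: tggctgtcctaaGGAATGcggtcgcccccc

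Actc1: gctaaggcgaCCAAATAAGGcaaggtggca

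The matches begin 27, 58, 56 and 47 bases before the start of Tnnt2, Tnnc1, Tpm1 and Actc1. They describe the sequence, not a binding site.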

How the data were processed

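FPKM per gene and library were used as deposited. Per the submitters' processing notes the authors used cutadapt, HISAT2 2.0.5 and StringTie, and these notes name the build hg19. Yet the gene IDs are mouse: GENCODE M21 holds 12538 of the 12560, and for 11610 the deposited position differs from its GRCm38 position by at most 1 bp. Other columns of the deposited table hold the authors' log2 fold change, its antilog as a fold (a ratio), a p-value and a q-value, with group means of log2(FPKM + 1). Per the labels' protocols, RNA was enriched by poly(A) selection or by removing ribosomal RNA, with no word on which library had which.

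A mean of 1 FPKM over the 6 libraries was required of a gene. The test was limma (version 3.58.1, R 4.3.3) on log2(FPKM + 1) (moderated, two-sided, intensity trend, genotype as sole factor, Benjamini-Hochberg threshold 0.05), a scale that understates changes of low genes. The script was tested on simulated data. Depth was taken as the most frequent inverse of FPKM times length over genes with 1 annotated transcript, 73 to 149 of which lay within 3% of 1 fragment. Fragments are FPKM times principal transcript length times that depth, an approximation. Promoters are from RefSeq, coding sequences from GENCODE M21. Of the genes with the steadiest ratio, 1 is not reported here. Named genes were the 5 members, their paralogs with a row, 10 associated genes by mean FPKM, 10 genes with the steadiest ratio and 4 thick filament genes. Members, lists and tests were chosen with earlier results of these data known. Alternatives were other pseudocounts (0.1, 0.5), filters, scalings, variance models and weights, each library left out, and a replicate block. Python 3.11.15 was used.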

Additional observations from a re-analysis of the deposited data

How the results depend on the processing

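Limits set by depth come first: outside the libraries numbered 1, the 5 genes together stand on an estimated 88 to 129 fragments. Most ratios between the 5 genes could not be told from 1 there. Calls over all genes were 0 under every alternative but 3: 6 with library quality weights and, leaving out 1 library, a range of 0 to 4 (4 without Eldr cKO 1, 1 without control 1). No member was called under any alternative. Scaling moved the median log2 fold change of all tested genes from -0.13 to 0.01 (quantile) and 0.40 (median centring), and all 5 members stayed above 0 and above that median. Median centring gave larger values: 0.64 for Tnnt2, 1.09 for Tnni3, 0.58 for Tnnc1, 0.82 for Tpm1 and 0.94 for Actc1. With library quality weights the median of all tested genes fell to -0.52. All 5 members turned negative with it: Tnnt2 -0.53, Tnni3 -0.011, Tnnc1 -0.54, Tpm1 -0.082 and Actc1 -0.13. Tnnt2 and Tnnc1 lay just below that median, and Tnni3, Tpm1 and Actc1 above it. Leaving out 1 library gave log2 fold changes of -0.54 to 1.08 for Tnnt2, -0.0045 to 1.48 for Tnni3, -0.62 to 0.84 for Tnnc1, -0.10 to 0.86 for Tpm1, -0.20 to 0.92 for Actc1 and -0.28 to 1.01 for the sum. In the same fits the median of all tested genes ran from -0.76 without Eldr cKO 1 to 0.13 without Eldr cKO 2. The ratio difference ran from -0.57 to 0.16 for Actc1/Tnni3, -0.17 to 0.56 for Actc1/Tnnt2, -0.15 to 0.41 for Actc1/Tpm1, -0.24 to 0.093 for Tnnc1/Tnnt2 and -0.44 to 0.23 for Tnnt2/Tpm1. The other 5 pairs kept their sign but not their size: 0.071 to 0.58 for Actc1/Tnnc1, -0.57 to -0.0078 for Tnnc1/Tpm1, 0.045 to 0.62 for Tnni3/Tpm1, -0.64 to -0.34 for Tnnc1/Tnni3 and 0.32 to 0.57 for Tnni3/Tnnt2. Counted as fragments in place of FPKM, shares in Eldr cKO were 12.998% for Tnni3, 13.2% for Tnnc1 and 23.6% for Tpm1, and in control libraries 10.9%, 15.6% and 23.5%; this alternative weights each gene by its length. With the paralogs in the denominator Tnnt2 was at 11.3% in Eldr cKO. Of the 10 genes with the steadiest ratio, 6 were kept at a mean of 20 FPKM and 8 with a pseudocount of 1. The filter on the mean can only remove low genes, so the first number is no separate check.

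Same-numbered libraries share only a number in the labels. Deviations from the group means correlated at 0.28, 0.15 and 0.095 for numbers 1, 2 and 3, and every library correlated best with its own number. With 3 libraries a group these deviations depend on each other. The libraries numbered 1 were also the deepest of their group and had its smallest repeat-rich share. Whether the correlations reflect pairing or such shared features was not tested. With the replicate block limma called 0 genes, and 223 in place of 135 had an unadjusted p under 0.05; the log2 fold changes of the members were the same, with adjusted p from 0.884 to 0.987. The exact sign-flip test of the ratios cannot go below 0.25 with 3 pairs, and 4 of the 10 pairs reached it: Tnni3/Tnnt2, Tnnc1/Tnni3, Tnnc1/Tpm1 and Tnni3/Tpm1. Why single libraries turn a sign was not tested.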
